A study of Mus musculus with 8 samples.

Results

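The genes described here are 38 of the 43309 genes in a count table of mouse embryonic stem (ES) cells, and they form a list of germline, meiosis and piRNA pathway genes of the kind that DNA methylation keeps silent outside germ cells. They were chosen by name, with no threshold on their values but with earlier results of these data known, and their Ensembl identifiers were matched without the version number. Of the 38 genes, 37 had 10 or more counts in at least 1 of 8 libraries and were tested among 16816 genes. The exception was *Tdrd6*, a tudor domain gene of the male germline, whose highest count was 6. DNA methylation itself was not measured in these libraries.

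RNA was copied from lysed cells and amplified with the SMARTer Ultra Low kit, which primes on poly(A) tails, in 4 groups of 2 libraries. The groups combine a genotype label, *Zbtb24* knockout (KO, 1lox/1lox) or wild type (WT, 2lox/+), with a number of input cells, 100 or 1000. *Zbtb24* is a zinc finger gene whose loss in humans causes a syndrome of immunodeficiency and DNA hypomethylation. The comparison of genotypes asks how each germline gene differed between KO and WT, and the comparison of inputs asks whether that depended on the number of cells.

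All libraries came from J1 ES cells grown in serum-containing medium on gelatin without feeder cells, and the WT cells also carried a floxed *Zbtb24* allele. PCR ran for 10 cycles on the 1000-cell samples, which hold about 10 ng of RNA, and for 18 cycles on the 100-cell samples, with about 1 ng, so that cell number and cycle number changed together. The series record describes the replicates as lines from KO and WT clones, without naming the clone behind a library, and a difference between clones cannot be told apart from a difference between genotypes. Libraries held between 9666985 and 16686525 counts. *Zbtb24* counts were higher in the libraries labelled KO than in those labelled WT at both inputs, with log2 ratios of 1.37 ± 0.11 (SE, adjusted p = 4.33e-11) and 0.91 ± 0.13 (SE, adjusted p = 0.00111). The count covers every exon of the gene and does not check the deletion, so KO and WT below mean the libraries so labelled.

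Some libraries stood apart. In both KO libraries of 100 cells, 8 of 8 markers of oligodendrocytes and astrocytes and 6 of 8 markers of neurons were past the threshold as higher than in WT. At 1000 cells 2 of 8 markers of each list were called higher in KO, and 3 of the neuron markers were lower there and 1 at 100 cells. The summed level of the oligodendrocyte and astrocyte list was 408 and 412 cpm (counts scaled to a common library size) in the KO libraries of 100 cells. It was 89.6 to 180 cpm in the other 6 libraries. That of the neuron list was 529 and 549 cpm against 407 to 537 cpm, but most of it was *Stmn2*, at 341.9 to 492.5 cpm per library. *Snap25*, of the same list, was at 83.7 and 77.2 cpm in the KO libraries of 100 cells against 1.39 to 3.05 cpm elsewhere. *Mbp*, a myelin protein gene, had 1416 and 1360 counts in these KO libraries and 15 to 34 counts elsewhere. Markers of the 2-cell-like state summed to 74.7 cpm in replicate 2 of WT at 1000 cells and to at most 1.96 cpm in any other library. The part of these markers in the results below was not tested. In bulk RNA, fewer cells of a type and less RNA per cell cannot be told apart.

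As background, germ cells express a shared set of genes for the synaptonemal complex, for the meiotic form of cohesin, and for the piRNA pathway, in which small RNAs bound to Piwi proteins silence transposons from perinuclear granules called nuage. In other cells many of these genes have CpG-rich promoters that are methylated by *Dnmt3b* with the help of *Dnmt3l* and *Hells*. In ES cells a variant Polycomb complex that holds E2F6 and the MGA and MAX pair, which reads the E-box CACGTG, also represses some of them. Several genes of the list, *Tex19.1* and *Dazl* among them, are known to be transcribed in ES cells.

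Promoter windows of 300 bases, 250 before and 50 after the transcription start, were found for 32 of the 38 genes in a RefSeq table on GRCm38.p6. The 6 genes without an entry were *Tdrd6*, *Piwil2*, *Rnf17*, *Tex15*, *Tex11* and *Nxf3*. The median member window held 18.5 CG dinucleotides against 7 over all 32851 windows, and the ratio of observed to expected CG was 0.7 against 0.38. The letters CACGTG were found in 16 of 32 member windows (50%) and in 7.15% of all windows. The letters GCGGGA or TCCCGC, the core of an E2F site read on either strand, were found in 14 member windows (43.8%) and in 20% of all windows. CACGTG reads the same on both strands and itself holds 1 CG, so its share moves with the number of CG. These are descriptions of sequence, with no test.

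**Figure D1:**
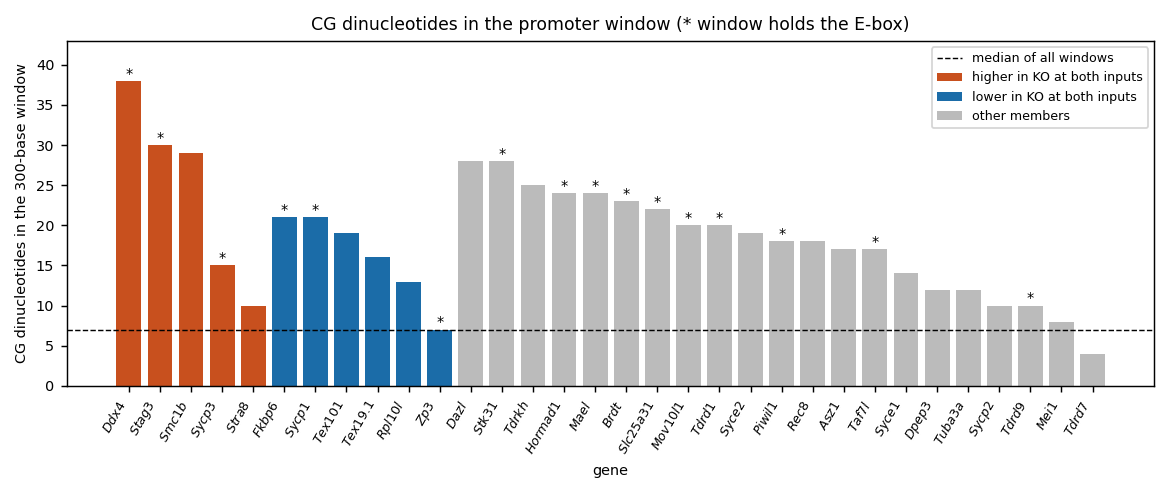
CG dinucleotides in the 300-base promoter window of the 32 genes with an entry (bars), coloured by whether the gene was past the threshold in KO against WT at both inputs; stars mark windows that hold CACGTG and the dashed line is the median of all windows (7). The bars run from 4 for Tdrd7 to 38 for Ddx4.

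The 250 bases before the start are shown for 6 genes with an entry, the 3 that rose most and the 3 that fell most on average among those called at both inputs, because they carry the widest genotype differences. Capitals mark CG dinucleotides, and each sequence reads in the direction of transcription. The 3 genes higher in KO were *Stra8* (chr6:34920698-34920947, plus strand), *Smc1b* (chr15:85131958-85132207, minus strand) and *Stag3* (chr5:138280259-138280508, plus strand).
Stra8: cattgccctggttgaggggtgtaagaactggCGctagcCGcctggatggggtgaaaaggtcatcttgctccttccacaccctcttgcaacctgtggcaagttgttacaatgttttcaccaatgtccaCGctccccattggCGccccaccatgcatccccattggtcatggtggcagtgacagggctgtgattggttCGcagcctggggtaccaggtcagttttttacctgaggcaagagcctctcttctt
Smc1b: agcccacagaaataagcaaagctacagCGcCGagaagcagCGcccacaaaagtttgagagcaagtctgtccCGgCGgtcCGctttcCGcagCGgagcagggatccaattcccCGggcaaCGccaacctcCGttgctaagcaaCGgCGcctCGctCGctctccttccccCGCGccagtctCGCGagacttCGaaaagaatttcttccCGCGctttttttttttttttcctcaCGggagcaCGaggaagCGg
Stag3: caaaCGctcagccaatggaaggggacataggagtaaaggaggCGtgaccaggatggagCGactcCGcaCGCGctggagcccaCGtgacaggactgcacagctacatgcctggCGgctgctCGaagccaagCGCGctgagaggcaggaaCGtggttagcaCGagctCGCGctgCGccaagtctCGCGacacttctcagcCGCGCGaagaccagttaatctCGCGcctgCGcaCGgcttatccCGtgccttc
*Stra8* held 5 CG in these bases, and *Smc1b* and *Stag3* held 25 and 26. *Stag3* held CACGTG once, *Smc1b* held TCCCGC once, and *Stra8* held none of the letters searched.

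The 3 genes lower in KO were *Zp3* (chr5:135979855-135980104, plus strand), *Fkbp6* (chr5:135350045-135350294, minus strand) and *Tex101* (chr7:24672051-24672300, minus strand).
Zp3: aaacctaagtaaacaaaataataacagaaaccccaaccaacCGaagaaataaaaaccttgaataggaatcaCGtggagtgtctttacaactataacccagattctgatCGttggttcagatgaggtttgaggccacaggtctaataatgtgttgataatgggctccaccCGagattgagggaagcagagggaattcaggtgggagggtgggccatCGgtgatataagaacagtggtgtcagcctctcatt
Fkbp6: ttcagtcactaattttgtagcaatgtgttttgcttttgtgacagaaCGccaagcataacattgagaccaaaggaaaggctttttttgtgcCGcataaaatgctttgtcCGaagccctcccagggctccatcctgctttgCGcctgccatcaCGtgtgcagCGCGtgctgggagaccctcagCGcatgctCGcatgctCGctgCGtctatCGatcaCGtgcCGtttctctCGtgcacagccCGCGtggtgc
Tex101: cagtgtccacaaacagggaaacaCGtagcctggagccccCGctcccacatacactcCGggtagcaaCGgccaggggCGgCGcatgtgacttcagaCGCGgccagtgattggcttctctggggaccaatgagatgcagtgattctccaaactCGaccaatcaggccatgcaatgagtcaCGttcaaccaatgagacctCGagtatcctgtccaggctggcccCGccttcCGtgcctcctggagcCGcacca
*Zp3* held 5 CG, *Fkbp6* held 17 and *Tex101* held 14. The letters CACGTG stood once in *Zp3* and at 2 places in *Fkbp6*. The RefSeq start used for *Tex101* lies 4625 bp from the 5′ end of the gene in GENCODE M21. Those of *Stra8* and *Stag3* lie 785 and 269 bp from the 5′ ends of their genes. The bases shown for *Tex101*, *Stra8* and *Stag3* therefore lie inside the gene as annotated there. Among the windows not shown, the starts of *Piwil1* and *Mei1* lie 33722 and 12480 bp from the 5′ ends of their genes.

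Most of the listed genes were not silent in WT. At 1000 cells, 33 of 38 had 10 or more counts in both WT libraries, and 21 of the 37 tested genes lay above the median level of all tested genes, 2.48 cpm per kb of exon. On this scale per length, WT levels at 1000 cells ran from 0.0442 for *Mei1* to 91.8 for *Syce2*, with a median of 4.07. The label of a silenced group therefore did not hold for the list as a whole in these cells. None of 7 spermatid markers reached 10 counts in a library, and 6 of them (*Prm1*, *Prm2*, *Tnp2*, *Acrv1*, *Odf1* and *Spata18*) had at most 3 counts in every library. Of 7 oocyte markers, *Zp1*, *Bmp15*, *Oosp1* and *Nlrp5* had at most 3 counts in every library and *Figla* at most 5. The other two were detected, *Gdf9* with 6 to 22 counts per library and *Zp2* with 23 and 12 counts in WT at 1000 cells, 1 and 7 counts in WT at 100 cells and none in any KO library. *Zp2* was called lower in KO at 1000 cells (edgeR adjusted p = 4.71e-05) and not at 100 cells (adjusted p = 0.0748). Of 6 markers of primordial germ cells, 3 were higher in KO and 2 lower at 1000 cells, and 4 were higher and 2 lower at 100 cells, with a summed level of 109 to 136 cpm in WT and 191 to 206 cpm in KO. All 10 ES cell markers were detected, with a summed level of 3460 to 4310 cpm, of which *Tdgf1* alone made up 1549 to 1957 cpm. In KO 4 of them were called higher and 4 lower at 1000 cells, and 4 higher and 2 lower at 100 cells.

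**Figure D2:**
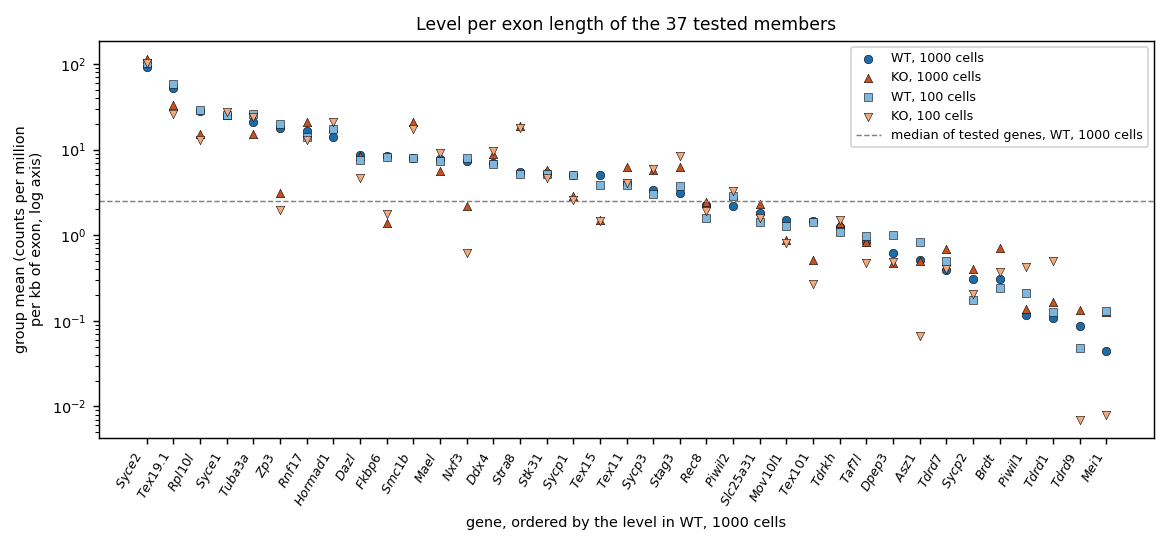
Group means of the 37 tested genes in cpm per kb of exon (log axis), ordered by the level in WT at 1000 cells, with 1 symbol per group and 2 libraries behind each symbol. The dashed line is the median of all tested genes in WT at 1000 cells (2.48), and 21 of 37 genes lie above it in that group.

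In KO against WT at 1000 cells, 23 of the 37 tested genes were past an adjusted p of 0.05, 12 as higher and 11 as lower. At 100 cells 17 were past it, 6 as higher and 11 as lower, and the count was 11 without either KO library and 25 without replicate 2 of WT. Over all tested genes the share called was 41.5% at 1000 cells (20.9% higher and 20.6% lower) and 34.2% at 100 cells (17.6% higher and 16.6% lower), against 62.2% and 45.9% of the listed genes. The genes did not move in 1 direction. The median over the 37 log2 ratios was 0.19 for 1000 cells and −0.16 for 100 cells, beside −0.00089 and −0.001 over all tested genes.

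Both inputs, which share no library but may share clones, gave the same call for 13 of the 37 genes (5 higher and 8 lower). Over all tested genes 16.8% were called at both inputs with 1 sign, 7.52% as higher and 9.24% as lower. No listed gene was called in opposite directions. The 5 higher in KO were *Stra8*, *Smc1b*, *Stag3*, *Sycp3* and *Ddx4*, and the 8 lower were *Zp3*, *Nxf3*, *Fkbp6*, *Tex101*, *Tex15*, *Rpl10l*, *Tex19.1* and *Sycp1*. Without any 1 library, the count of 13 ranged from 10 to 16, and without replicate 2 of WT at 1000 cells, the library with 2-cell-like markers, it was 11.

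**Figure D3:**
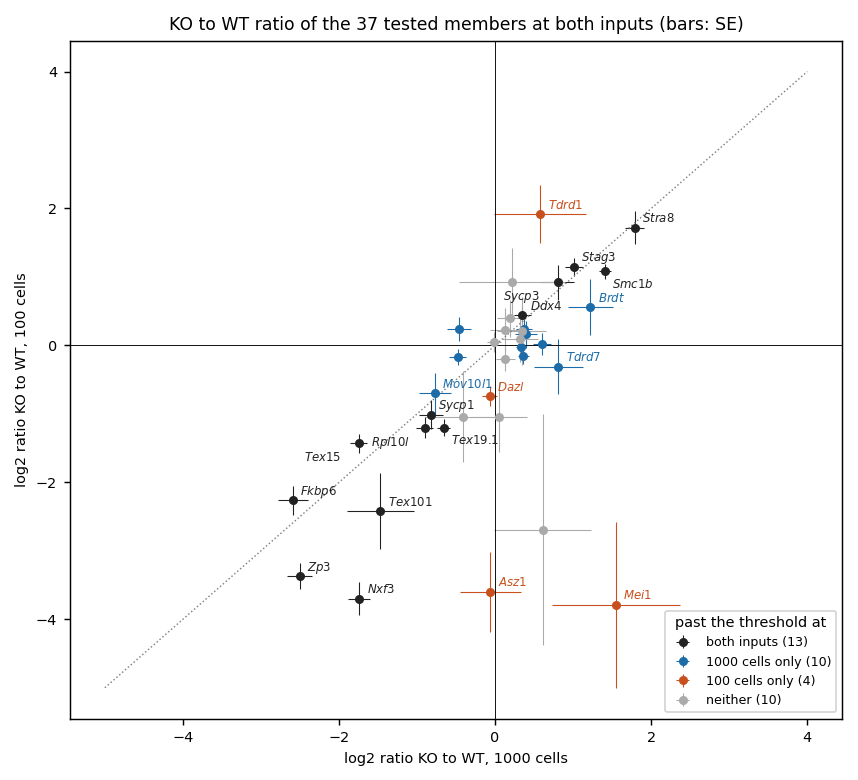
Log2 ratio of KO to WT for the 37 tested genes at 1000 cells (horizontal axis) and at 100 cells (vertical axis), with bars of 1 standard error, coloured by the inputs at which the gene was past the threshold. The 13 genes called at both inputs lie in the quadrants of equal sign, and Asz1 and Mei1 lie far below the dotted line of equality at 100 cells.

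Among the 4 regulators of RNA and transcription, *Stra8*, the retinoic acid-induced gene that commits germ cells to meiosis, showed the largest increase of the list at 1000 cells. Its level in the 2 libraries was 10.1 and 9.49 cpm in WT and 33.6 and 34.1 cpm in KO at 1000 cells. The smaller input gave 6.33 and 12.2 cpm in WT and 31.7 and 32.5 cpm in KO. The genotypes did not overlap at either input, and the WT libraries of 100 cells differed from each other more than those of the other groups. This was a log2 ratio of 1.79 ± 0.12 (SE, adjusted p = 6.29e-13) for the larger and 1.72 ± 0.24 (SE, adjusted p = 0.000929) for the smaller input, and every alternative tried kept both calls.

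*Brdt*, a testis bromodomain protein that compacts acetylated chromatin, was called at 1000 cells alone. Its levels were 1.56 and 1.55 cpm in WT and 3.34 and 3.95 cpm in KO there, a log2 ratio of 1.22 ± 0.29 (SE, adjusted p = 0.00118). From 100 cells the levels were 1.09 and 1.36 cpm in WT and 1.87 and 1.89 cpm in KO, which gave a log2 ratio of 0.56 ± 0.41 (SE, adjusted p = 0.318). The ratio was not shown to differ between inputs (interaction adjusted p = 0.398). *Dazl*, an RNA-binding protein needed to license germ cells, was at 35.5 and 30.7 cpm in WT and 32.3 and 31.1 cpm in KO at 1000 cells. Its 100-cell libraries were at 27.8 and 30.4 cpm in WT and 17.9 and 18 cpm in KO. It was not called at 1000 cells, with a log2 ratio of −0.07 ± 0.10 (SE, adjusted p = 0.627), and was lower in KO at 100 cells, with a log2 ratio of −0.74 ± 0.14 (SE, adjusted p = 0.00372). Without replicate 1 or 2 of KO that call was lost (adjusted p = 0.0851 and 0.0781, edgeR). *Taf7l*, a germ cell form of a general transcription factor subunit, was called at neither input and had between 14 and 33 counts per library.

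Cohesin holds sister chromatids together, and germ cells replace several of its subunits. *Smc1b* and *Stag3*, both meiosis-specific subunits, were higher in KO at both inputs. *Smc1b* was at 32.1 and 31.8 cpm in WT and 82.5 and 87.4 cpm in KO at 1000 cells, a log2 ratio of 1.41 ± 0.08 (SE, adjusted p = 6.77e-14). The 100-cell libraries were at 31.7 and 32.2 cpm in WT and 70.4 and 69.5 cpm in KO, a log2 ratio of 1.08 ± 0.11 (SE, adjusted p = 0.000253). The replicates of each group lay close together and far from the other genotype. *Stag3* had 330 and 205 counts in WT and 475 and 514 counts in KO at 1000 cells, with a log2 ratio of 1.01 ± 0.11 (SE, adjusted p = 9.83e-09). The 100-cell libraries had 223 and 275 counts in WT and 633 and 667 counts in KO, with a log2 ratio of 1.15 ± 0.13 (SE, adjusted p = 0.000357). No alternative removed a call of either gene. *Rec8*, the meiotic kleisin that binds them, was called at neither input, with log2 ratios of 0.13 ± 0.20 (SE, adjusted p = 0.64) and 0.23 ± 0.31 (SE, adjusted p = 0.589).

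In the synaptonemal complex, which joins homologous chromosomes, the axial protein *Sycp3* and the transverse filament *Sycp1* were called in opposite directions. *Sycp3* was at 3.76 and 4.66 cpm in WT and 6.14 and 8.31 cpm in KO at 1000 cells and at 3.07 and 4.6 cpm in WT and 7.54 and 7.63 cpm in KO at 100 cells. The ratio, as log2, was 0.80 ± 0.21 (SE, adjusted p = 0.00332) for 1000 and 0.92 ± 0.26 (SE, adjusted p = 0.0209) for 100 cells. It is uncertain, since 52.2% of its exon bases overlap *Chpt1* on the opposite strand, counting ignored strand, and DESeq2 kept neither call. Its call at 1000 cells was lost without replicate 2 of KO (edgeR adjusted p = 0.103), and that at 100 cells without replicate 1 or 2 of KO (0.151 and 0.169). *Sycp1* was at 16.1 and 20.1 cpm in WT and 8.94 and 11.3 cpm in KO at 1000 cells, with a log2 ratio of −0.82 ± 0.15 (SE, adjusted p = 4.44e-05). The smaller input gave 15.6 and 20.2 cpm in WT and 7.91 and 10.5 cpm in KO, with a log2 ratio of −1.01 ± 0.21 (SE, adjusted p = 0.00553), and without replicate 1 of KO the adjusted p was 0.0963. The genotypes did not overlap for either gene at either input.

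*Syce2*, a central element protein and the most abundant listed gene per length, was at 180.6 and 180.7 cpm in WT and 219.9 and 233 cpm in KO at 1000 cells, with a log2 ratio of 0.33 ± 0.06 (SE, adjusted p = 0.000105). At 100 cells its levels overlapped, at 175 and 228 cpm in WT and 203 and 206 cpm in KO, with a log2 ratio of −0.02 ± 0.13 (SE, adjusted p = 0.905). *Tex11*, an X-linked gene for meiotic crossovers, was at 15.1 and 14.5 cpm in WT and 23.3 and 21.5 cpm in KO at 1000 cells, and at 13.6 and 14.5 cpm in WT and 15.3 and 14 cpm in KO at 100 cells. Its increase was called at 1000 cells alone, with a log2 ratio of 0.60 ± 0.12 (SE, adjusted p = 0.00017) against 0.02 ± 0.16 (SE, adjusted p = 0.947). *Hormad1*, a protein of the unsynapsed chromosome axis, was at 25.2 and 23.4 cpm in WT and 30.9 and 32.1 cpm in KO at 1000 cells, with a log2 ratio of 0.37 ± 0.10 (SE, adjusted p = 0.00461). From 100 cells the levels were 26.8 and 32.7 cpm in WT and 37.6 and 34.8 cpm in KO, with a log2 ratio of 0.24 ± 0.14 (SE, adjusted p = 0.219), and 27.2% of its 50-bp windows are shared with the pseudogenes *Gm15529* and *Gm7167*, which makes it uncertain.

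*Mei1*, which is needed for meiotic double-strand breaks, was near the limit of detection. It had 3 and 3 counts in WT and 4 and 13 counts in KO at 1000 cells, and 4 and 11 counts in WT against 0 and 1 counts in KO at 100 cells. By summed counts the ratio of KO to WT was 3.06 (95% counting interval 1.15 to 9.48) at 1000 cells and 0.0585 (0.00139 to 0.38) at 100 cells. The quasi-likelihood test called the second (adjusted p = 0.0362) and not the first (adjusted p = 0.133), and DESeq2 gave an adjusted p of 0.139 for the second and none for the first. Without replicate 1 or 2 of KO at 100 cells the call was lost (edgeR adjusted p = 0.283 and 0.114), as with a filter of 1 count in any library (0.0676). *Sycp2* and *Syce1*, of the lateral and central elements, were called at neither input, and *Syce1* stayed between 32.1 and 42.1 cpm in every library.

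**Figure D4:**
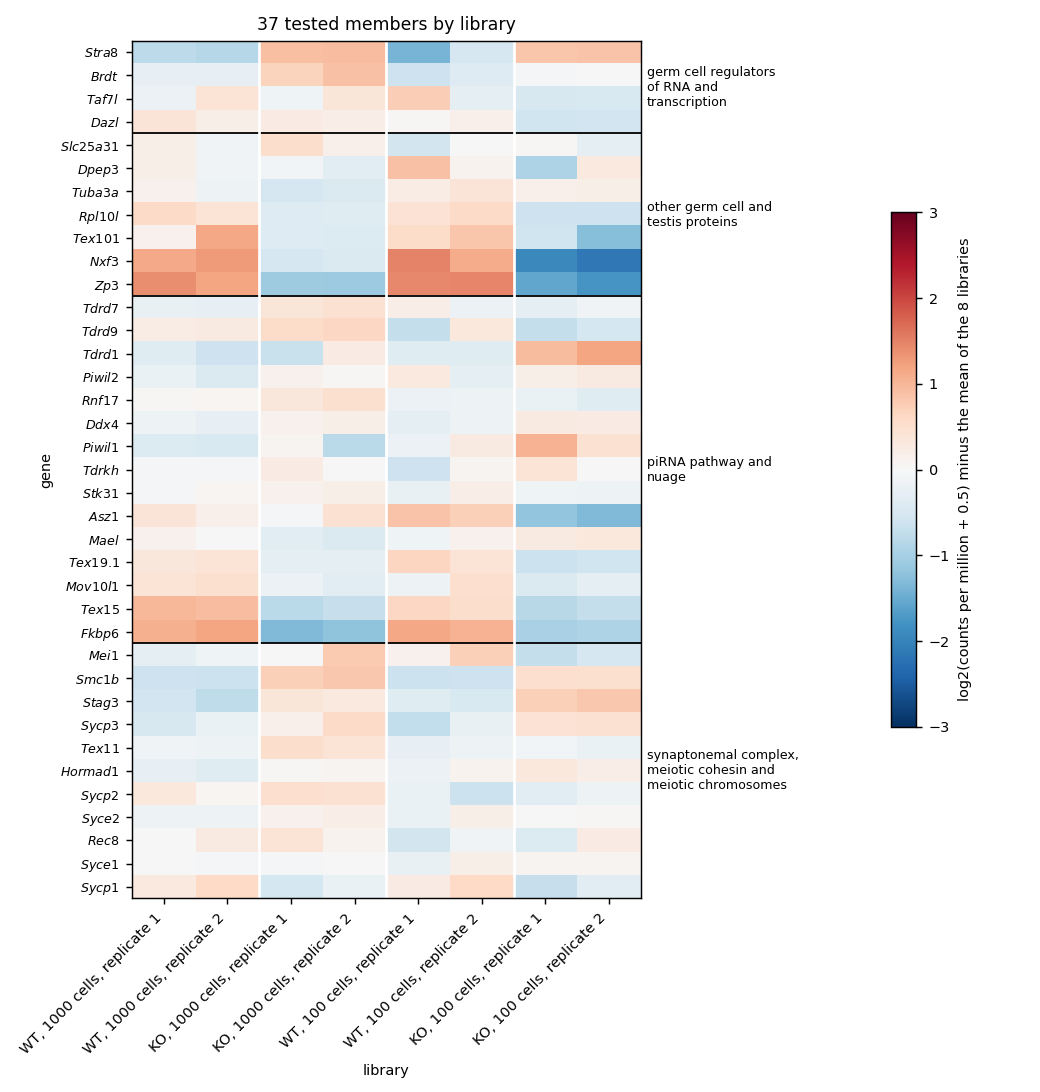
Level of the 37 tested genes in each of the 8 libraries, as log2(cpm + 0.5) minus the mean of the 8 libraries, grouped by role and ordered by the log2 ratio at 1000 cells. Stra8, Smc1b and Stag3 are above their mean in all 4 KO libraries and Fkbp6, Tex15, Nxf3 and Zp3 are below it, and most rows have smaller differences.

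The piRNA pathway and nuage genes were split. Of 15 tested, 4 rose and 5 fell in KO at 1000 cells, while 2 rose and 4 fell at 100 cells. The shares called were 60% and 40%, beside 41.5% and 34.2% over all tested genes, so that at 100 cells the share was near the background. *Fkbp6*, a co-chaperone of piRNA loading, was at 14.2 and 15.5 cpm in WT and 2.33 and 2.56 cpm in KO at 1000 cells, with a log2 ratio of −2.59 ± 0.19 (SE, adjusted p = 6.24e-12). At 100 cells it was at 15.1 and 13.9 cpm in WT and 3.06 and 3.17 cpm in KO, with a log2 ratio of −2.26 ± 0.21 (SE, adjusted p = 0.000138). The KO libraries lay far below every WT library. *Fkbp6* and *Zp3* lie near each other on chromosome 5, with 630054 bp between them.

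*Tex15*, which links piRNAs to transposon methylation and acts in meiotic recombination, was at 49.6 and 48 cpm in WT and 13.9 and 15.1 cpm in KO at 1000 cells, with a log2 ratio of −1.75 ± 0.11 (SE, adjusted p = 6.92e-14). The 100-cell libraries were at 38.2 and 36.2 cpm in WT and 13.7 and 14.8 cpm in KO, with a log2 ratio of −1.43 ± 0.14 (SE, adjusted p = 0.00018). *Tex19.1*, a transposon control gene that pluripotent cells also express, was second to *Syce2* in level per length in WT at 1000 cells. It was at 96.3 and 99.99 cpm in WT and 61.2 and 62.7 cpm in KO at 1000 cells, and at 118 and 100.5 cpm in WT and 48.1 and 49.9 cpm in KO at 100 cells. The ratio, as log2, was −0.66 ± 0.08 (SE, adjusted p = 2.97e-08) for 1000 and −1.20 ± 0.12 (SE, adjusted p = 0.000223) for 100 cells. *Ddx4*, the Vasa helicase that marks nuage, rose in KO by less than the other 4 genes that rose at both inputs. It was at 21.5 and 20.1 cpm in WT and 26.3 and 27 cpm in KO at 1000 cells, and at 19.6 and 21.5 cpm in WT and 29.1 and 28.5 cpm in KO at 100 cells. The log2 ratios were 0.35 ± 0.11 (SE, adjusted p = 0.00973) and 0.44 ± 0.14 (SE, adjusted p = 0.0329), both without a call by DESeq2. The call at 1000 cells was lost without replicate 2 of WT or of KO (edgeR adjusted p = 0.0566 and 0.0567) or with library size alone (0.0515). That at 100 cells was lost without replicate 1 or 2 of KO (0.34 and 0.309) or with a filter of 1 count in any library (0.0544).

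At 1000 cells alone, *Rnf17*, *Piwil2* and *Tdrd7* were called higher and *Mov10l1* and *Mael* lower. *Rnf17*, a tudor domain gene of spermatid granules, was at 101 and 103 cpm in WT and 124 and 137 cpm in KO at 1000 cells, with a log2 ratio of 0.36 ± 0.07 (SE, adjusted p = 0.000124), and at 86.5 and 88.7 cpm in WT and 85.9 and 76.3 cpm in KO at 100 cells, with a log2 ratio of −0.16 ± 0.11 (SE, adjusted p = 0.302). *Piwil2*, the Piwi protein MILI, was at 12.6 and 10.8 cpm in WT and 16.2 and 15 cpm in KO at 1000 cells, with a log2 ratio of 0.40 ± 0.14 (SE, adjusted p = 0.0202). Its libraries overlapped at 100 cells, at 18 and 12.2 cpm in WT and 16.6 and 17.8 cpm in KO, with a log2 ratio of 0.16 ± 0.20 (SE, adjusted p = 0.584). The call of *Piwil2* was lost without replicate 2 of WT or replicate 1 of KO (edgeR adjusted p = 0.145 and 0.107), with DESeq2 (0.129), with library size alone as scaling (0.0708) and in 1 fit of all 8 libraries (0.096). *Tdrd7*, of the chromatoid body, was low, at 1.56 and 1.55 cpm in WT and 2.64 and 2.84 cpm in KO at 1000 cells, with a log2 ratio of 0.81 ± 0.31 (SE, adjusted p = 0.0387). The 100-cell libraries held 2.27 and 1.66 cpm in WT and 1.49 and 1.74 cpm in KO, with a log2 ratio of −0.31 ± 0.40 (SE, adjusted p = 0.576), and leaving out any 1 of the 4 libraries of 1000 cells ended its call (edgeR adjusted p = 0.0783 to 0.173), as did DESeq2 (0.226), library size alone (0.0645) and 1 fit of all 8 libraries (0.0739).

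*Mov10l1*, the helicase that starts piRNA processing, was at 6.19 and 6.46 cpm in WT and 3.96 and 3.46 cpm in KO at 1000 cells, with a log2 ratio of −0.77 ± 0.21 (SE, adjusted p = 0.00452). Its level at 100 cells was 4.05 and 6.64 cpm in WT and 3.21 and 3.63 cpm in KO, where a log2 ratio of −0.70 ± 0.30 (SE, adjusted p = 0.0964) missed the threshold. *Mael*, the Maelstrom gene of transposon silencing, was at 13.9 and 12.8 cpm in WT and 10.2 and 9.35 cpm in KO at 1000 cells, with a log2 ratio of −0.46 ± 0.15 (SE, adjusted p = 0.0115). At 100 cells the order turned, with 11.7 and 14 cpm in WT and 15.3 and 15.9 cpm in KO, and the log2 ratio of 0.24 ± 0.17 (SE, adjusted p = 0.303) was not called. DESeq2 did not call *Mov10l1* or *Mael* at 1000 cells, and the call of *Mael* was also lost without replicate 1 of WT or replicate 2 of KO (edgeR adjusted p = 0.0962 and 0.102).

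At 100 cells alone, *Tdrd1* was called higher and *Asz1* lower. *Tdrd1*, the tudor partner of MILI, had 12 and 6 counts in WT and 6 and 19 counts in KO at 1000 cells, with a log2 ratio of 0.58 ± 0.59 (SE, adjusted p = 0.462). The smaller input gave 7 and 9 counts in WT and 33 and 39 counts in KO, with a log2 ratio of 1.92 ± 0.43 (SE, adjusted p = 0.00847), and leaving out replicate 1 or 2 of KO ended the call (edgeR adjusted p = 0.0638 and 0.136). *Asz1*, which anchors nuage to mitochondria, had 28 and 16 counts in WT and 14 and 25 counts in KO at 1000 cells, with a log2 ratio of −0.06 ± 0.39 (SE, adjusted p = 0.926). From 100 cells it had 25 and 29 counts in WT and 3 and 2 counts in KO. By summed counts the ratio of KO to WT was 0.0812 there (95% counting interval 0.0254 to 0.202), with an adjusted p of 0.00182, and every alternative kept the call. *Tdrd9*, *Piwil1*, *Tdrkh* and *Stk31* were called at neither input. *Tdrd9* had at most 11 counts in any library, and 36.7% of the exon bases of *Tdrkh* overlap *Oaz3* on the opposite strand.

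None of the 7 other germ cell and testis genes was called higher in KO. At 1000 cells 5 were lower and at 100 cells 4 were. Over all tested genes 20.9% were higher and 20.6% lower at 1000 cells, and 17.6% and 16.6% at 100 cells. None higher among 7 genes is near the background, while the shares lower, 71.4% and 57.1%, were above it. With 7 genes, chosen with earlier results known, this difference was not tested. *Zp3*, the egg coat glycoprotein that binds sperm, was at 25 and 21.8 cpm in WT and 4.2 and 4.08 cpm in KO at 1000 cells, with a log2 ratio of −2.50 ± 0.16 (SE, adjusted p = 1.58e-13). The smaller input gave 25.8 and 26.4 cpm in WT and 2.84 and 2.34 cpm in KO, with a log2 ratio of −3.37 ± 0.19 (SE, adjusted p = 1.6e-05). *Nxf3*, an X-linked gene of the nuclear RNA export family (chrX:136072099-136085255, minus strand, GRCm38), was at 21.4 and 23.7 cpm in WT and 6.53 and 6.92 cpm in KO at 1000 cells, with a log2 ratio of −1.74 ± 0.14 (SE, adjusted p = 4.83e-11). From 100 cells the levels were 27.5 and 21.2 cpm in WT and 2.09 and 1.74 cpm in KO, with a log2 ratio of −3.70 ± 0.24 (SE, adjusted p = 2.34e-05). Every KO library lay below every WT library for both genes, and no alternative ended their calls.

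*Rpl10l*, a retrogene of the ribosomal protein gene *Rpl10* that serves male meiosis, was at 30.9 and 27.5 cpm in WT and 15.5 and 15.8 cpm in KO at 1000 cells, with a log2 ratio of −0.90 ± 0.11 (SE, adjusted p = 2.09e-07). At 100 cells it was at 28.1 and 30.9 cpm in WT and 13.2 and 13.3 cpm in KO, with a log2 ratio of −1.20 ± 0.15 (SE, adjusted p = 0.000479). *Tex101*, a cell surface protein of male germ cells, was low in all groups. It had 25 and 42 counts in WT and 11 and 12 counts in KO at 1000 cells, with a log2 ratio of −1.47 ± 0.43 (SE, adjusted p = 0.0068), and 21 and 35 counts in WT and 9 and 3 counts in KO at 100 cells, with a log2 ratio of −2.42 ± 0.55 (SE, adjusted p = 0.00885). Its call at 1000 cells was lost without replicate 2 of WT (edgeR adjusted p = 0.247) and with DESeq2 (0.0555), and its call at 100 cells was lost without replicate 2 of KO (edgeR adjusted p = 0.126). *Tuba3a*, a testis alpha-tubulin, was at 35.2 and 28.8 cpm in WT and 22.5 and 23.7 cpm in KO at 1000 cells, with a log2 ratio of −0.48 ± 0.11 (SE, adjusted p = 0.000799). Its 100-cell level was 37.2 and 41.6 cpm in WT and 35.8 and 36.4 cpm in KO, with a log2 ratio of −0.17 ± 0.12 (SE, adjusted p = 0.309), and 35.3% of its 50-bp windows are shared with *Tuba3b* and other genes, which makes it uncertain. Its call at 1000 cells was lost without replicate 1 of WT (edgeR adjusted p = 0.055). *Dpep3* and *Slc25a31* were called at neither input.

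**Figure D5:**
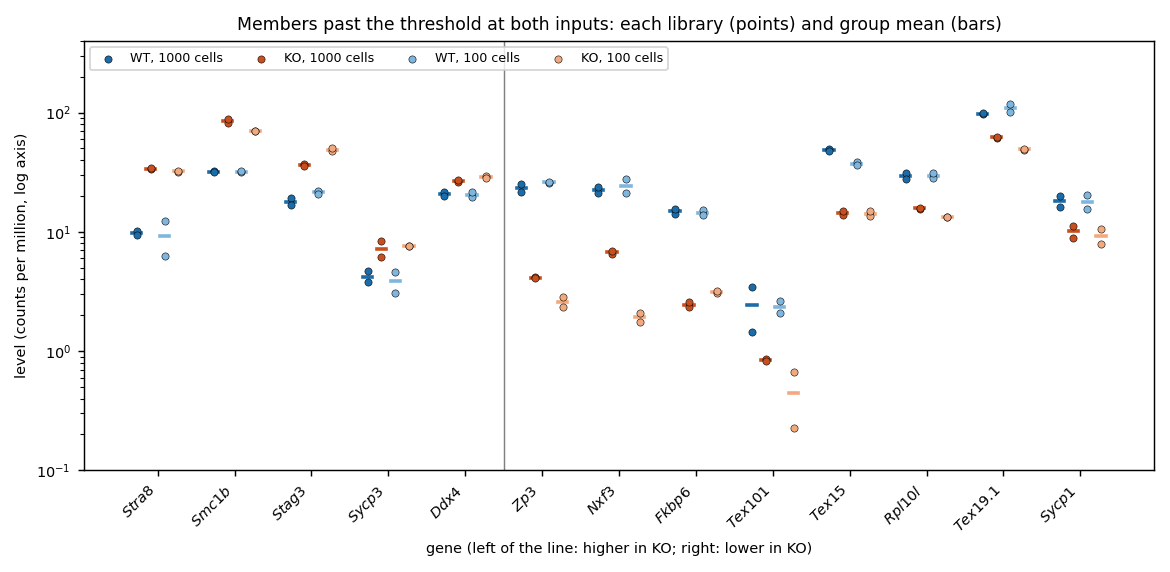
Level in cpm (log axis) of the 13 genes called for both inputs, each library being a point and each group mean a bar. The 2 KO points and the 2 WT points of an input do not overlap for these genes. They were chosen by their calls in the same libraries, so this separation is largely set by the choice and adds no support. Nxf3 and Zp3 are lower in KO at 100 cells than in KO at 1000 cells.

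The ratio of KO to WT differed between inputs for 8 of the 37 genes by the interaction of genotype and input (16.3% of all tested genes). The ratio was more positive at 100 cells for *Mael* (9.28% of all genes) and more negative for 7 (7.05% of all genes), namely *Asz1*, *Rnf17*, *Tex19.1*, *Mei1*, *Dazl*, *Nxf3* and *Zp3*. *Nxf3* showed the interaction of −1.92 ± 0.28 (SE, adjusted p = 0.00108), which every alternative kept. Without 1 library at 1000 cells the count of 8 was 3 or 2 (WT replicate 1 or 2) and 4 or 2 (KO replicate 1 or 2). Without 1 library at 100 cells it was 12 or 11 (WT replicate 1 or 2) and 2 or 1 (KO replicate 1 or 2).

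In WT alone, none of the 37 genes differed between 100 and 1000 cells by edgeR's quasi-likelihood test (0.827% of all genes did). *Tex15* had an unadjusted p under 0.05, and DESeq2 and edgeR's exact test also called 0 genes, again with *Tex15* as the 1 gene under 0.05 before adjustment. The WT libraries of 100 cells were 16.1 times the sampling variance apart, against 1.94 for the KO libraries of 100 cells. That spread limits what the WT comparison can call, so its count and that in KO are not like for like. In KO, 20 of 37 genes differed between inputs, 5 as higher at 100 cells and 15 as lower. Over all tested genes, 52.1% differed in KO, 27.3% as higher and 24.8% as lower. The 5 higher at 100 cells in KO were *Tdrd1*, *Piwil1*, *Mael*, *Tuba3a* and *Stag3*. Among the 15 lower, *Dazl* had a log2 ratio of 100 to 1000 cells of −0.82 ± 0.10 (SE, adjusted p = 1.99e-08), *Rnf17* of −0.69 ± 0.07 (SE, adjusted p = 1.9e-10) and *Nxf3* of −1.81 ± 0.23 (SE, adjusted p = 4.64e-08). The KO libraries of 100 cells are those with the raised markers of oligodendrocytes and astrocytes. The 12 increases and 11 decreases at 1000 cells were called without those libraries, in KO libraries where these markers summed to 158 and 180 cpm against 89.6 and 109 cpm in WT.

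Of 45 other germline genes, 36 were tested. At 1000 cells 6 were called higher in KO and 9 lower, and at 100 cells 7 higher and 9 lower, with median log2 ratios of 0.04 and −0.27. The shares called were 41.7% and 44.4%, beside 41.5% and 34.2% over all tested genes, and at 1000 cells the share was that of the background. At both inputs *Piwil4*, *Dmc1*, *Sohlh2*, *Meioc* and *Tex14* were higher and *Tktl2*, *Tuba3b*, *Nanos3* and *Dppa3* lower (a list chosen after the values were seen). The 3 with the largest mean ratio were *Tktl2*, *Tuba3b* and *Nanos3*. *Tktl2*, a transketolase-like gene, had 38 and 34 counts in WT and 2 and 4 counts in KO at 1000 cells, with a log2 ratio of −3.44 ± 0.52 (SE, adjusted p = 3.23e-06). At 100 cells it had 19 and 38 counts in WT and none in either KO library, at least 10.8-fold lower with a floor of 3 counts per library. *Tuba3b* had log2 ratios of −1.50 ± 0.38 (SE, adjusted p = 0.00193) and −2.12 ± 0.46 (SE, adjusted p = 0.00735), and *Nanos3*, an RNA-binding protein of primordial germ cells, of −1.04 ± 0.22 (SE, adjusted p = 0.00025) and −1.90 ± 0.33 (SE, adjusted p = 0.00251).

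Genes listed by name as possible repressors of germline promoters were measured beside the germline genes, and whether each has this role in these cells was not tested. Of 20 such genes, all tested, 2 rose and 10 fell in KO at 1000 cells, while 3 rose and 9 fell at 100 cells, with median log2 ratios of −0.21 and −0.3. This was 60% called at each input, beside 41.5% and 34.2% over all tested genes, of which 20.6% and 16.6% were lower. Those that rose were *E2f6* and *Cbx3* at 1000 cells and *Cbx3*, *Dnmt1* and *Kdm5c* at 100 cells. The 3 with the largest mean ratio were *Dnmt3b*, *Cdca7* and *Dnmt3l*. *Dnmt3b*, a de novo DNA methyltransferase, was at 183 and 204 cpm in WT and 44.8 and 41.3 cpm in KO at 1000 cells, with a log2 ratio of −2.17 ± 0.08 (SE, adjusted p = 6.05e-19). The 100-cell libraries held 212 and 214 cpm in WT and 87.5 and 86.3 cpm in KO, with a log2 ratio of −1.34 ± 0.10 (SE, adjusted p = 4.78e-05). *Cdca7*, a partner of the remodeller *Hells*, was at 163 and 160.2 cpm in WT and 47.6 and 49.1 cpm in KO at 1000 cells, and at 164 and 167 cpm in WT and 59.7 and 64.8 cpm in KO at 100 cells. Its log2 ratios were −1.74 ± 0.07 (SE, adjusted p = 2.12e-17) and −1.46 ± 0.11 (SE, adjusted p = 4.42e-05). *Dnmt3l*, the cofactor of the de novo enzymes, had log2 ratios of −1.41 ± 0.07 (SE, adjusted p = 5.56e-16) and −1.35 ± 0.10 (SE, adjusted p = 4.78e-05). The KO libraries lay below the WT libraries for all 3 genes at both inputs, and how these levels bear on the germline genes was not tested.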

How the data were processed

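Counts of 8 libraries of mouse ES cells (*Zbtb24* KO or WT, 100 or 1000 cells, 2 per group by the labels) were analysed. The deposited table holds raw fragment counts per gene. To make it, the authors removed reads of ribosomal RNA with Bowtie2 2.1.0, aligned the rest to mm10 by TopHat2 2.0.10, and obtained fragment counts of the GENCODE M4 annotation from HTSeq 0.6.1 in union mode without strand (versions per the submitters' processing notes). Ambiguous and multiply aligned fragments were left out of the counts, which lowers counts of overlapping genes and paralogs. The sources do not state whether PCR duplicates were removed, and intervals cover counting error only.

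After a filter of 10 or more counts in 1 or more libraries, 16816 genes remained. They were tested, two-sided, with edgeR 4.0.16 (quasi-likelihood F test, TMM scaling, R 4.3.3) and Benjamini-Hochberg adjustment over all of them at 0.05. Models compared KO with WT within each input, input within each genotype, and the interaction over 8 libraries. Standard errors came from the unshrunken coefficient and its F. With 2 libraries per group, p-values measure the spread between these libraries, and total counts of 9666985 to 16686525 set the precision. Levels are cpm of the TMM-adjusted library size. Levels per length used exons of GENCODE M21, to which 97.96% of identifiers matched, and gene positions and overlaps were read from it.

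Members called in KO against WT at either input or in the interaction are named with values in every library. Of the lists of other germline genes and repressors, the 3 with the largest mean log2 ratio called at both inputs with 1 sign are named. The members, lists and tests were chosen with earlier results of these data known. Alternatives were DESeq2 1.42.0, DESeq2 size factors or library size alone, edgeR's exact test, other filters, a minimum ratio, 1 fit of all libraries, a replicate block and leaving out each library.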

Additional observations from a re-analysis of the deposited data

Results flagged for a closer look

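The ratio of KO to WT differed between 1000 and 100 cells, by edgeR's interaction of genotype and input over all 8 libraries, for 8 of the listed germline genes and for *Dnmt3b*. The interaction is the log2 ratio of KO to WT at 100 cells minus that at 1000 cells. It was −1.92 for *Nxf3* (adjusted p = 0.00108), which 15 of 15 alternatives kept. It was −3.5 for *Asz1* (adjusted p = 0.00583), kept by 14 of 15, with 3 and 2 counts in the KO libraries of 100 cells. It was −5.32 for *Mei1* (adjusted p = 0.0253), kept by 9, a gene with at most 13 counts in any library. It was −0.83 for *Zp3* (adjusted p = 0.0377), kept by 6. It was −0.64 for *Dazl* (adjusted p = 0.0217), kept by 9. *Tex19.1* had −0.5 (adjusted p = 0.028), kept by 7, and *Rnf17* had −0.47 (adjusted p = 0.0266), kept by 9. *Mael* had 0.74 (adjusted p = 0.0312), kept by 7, with a lower level in KO at 1000 cells alone. *Dnmt3b* had 0.87 (adjusted p = 0.00114), kept by 14. Cell number and PCR cycle number changed together, and in the KO libraries of 100 cells 8 of 8 oligodendrocyte and astrocyte markers were higher than in WT. Their part in these differences was not tested.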

How the results depend on the processing

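Every alternative kept the direction of each member's call in KO against WT. Over the members called at 1000 cells, 260 pairs of gene and alternative kept the call and 39 lost it, and at 100 cells 201 kept it and 20 lost it. With a log2 ratio over 1 in size required as well, the counts of called members became 9 at 1000 cells, 3 in the interaction and 6 in KO between inputs. DESeq2 called 16 members at 1000 cells, 14 at 100 cells, 5 in the interaction and 12 in KO between inputs. The count of 13 members called at both inputs became 10 with DESeq2 and 8 with a log2 ratio over 1. With the replicate block (replicate number as a term), 23 members were called at 1000 cells, 17 at 100 cells, 8 in the interaction, 0 in WT between inputs and 20 in KO, as without it. Deviations of same-numbered libraries correlated by −0.056 to 0.07 over 6 pairs of groups, which gave no sign of pairing by number. Noise between libraries can hide such pairing, so these values cannot decide whether same-numbered libraries share a clone. With library size alone as scaling, the median log2 ratio of members at 1000 cells was 0.1, and all tested genes split into 2776 higher and 4290 lower calls in place of 3514 and 3465.

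Leaving out 1 library, with the lone library assumed to vary like the other groups, gave 19 to 21 called members at 1000 cells and 11 to 25 at 100 cells. It gave 1 to 12 in the interaction, 0 to 4 in WT between inputs (4 and 3 without replicate 1 or 2 of WT at 100 cells) and 14 to 19 in KO between inputs. The count at 100 cells was 11 without either KO library and 25 without replicate 2 of WT, whose group had replicates 16.1 times the sampling variance apart against 1.94 to 3.12 in the other 3. The interaction count was 1 without replicate 2 of KO at 100 cells. The median at 1000 cells ranged from 0.16 to 0.29. Depth limits *Tdrd6*, *Mei1*, *Tdrd9*, *Asz1*, *Tdrd1*, *Piwil1* and *Tex101* most, which have few counts in at least 1 group.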
